A study of Mus musculus with 4 samples.

Results

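The Hox cluster genes of the mouse, the coding genes Hoxa, Hoxb, Hoxc and Hoxd followed by a number, were examined in the kidney of sham-operated mice and of mice with a ligated bile duct (BDL). They were chosen as the array probes whose RefSeq accession maps to such a symbol, with antisense and other noncoding transcripts left out. This gave 39 genes of the 20652 with a symbol on the array, and 43 of the 55668 probes analysed. All 39 coding Hox genes of the RefSeq table were on the array, 35 with 1 probe and 4 with 2.

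Hox genes encode homeodomain transcription factors that lie in 4 clusters, and genes at the same place in different clusters form a paralog group, numbered from 1 at the 3′ end of a cluster to 13 at its 5′ end. During development they are switched on in order from the 3′ to the 5′ end, and the set that a cell expresses records its position along the head-to-tail axis. In the kidney, group 11 genes act with Eya1 upstream of Six2 and Gdnf when the metanephros forms, and a Hoxb7 promoter fragment is widely used to drive transgenes in the ureteric bud and collecting duct.

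Ligation of the bile duct stops the flow of bile and models cholestasis, so the comparison asks what changes in the kidney in cholestasis. Total RNA of whole mouse kidney, collected 2 weeks after the operation, was hybridised to 4 arrays, 2 sham and 2 BDL. The labels give neither strain, sex, age nor genotype, and the design text calls the replicates biological without saying how many animals gave each RNA. If they came from a shared RNA or pool, the p-values measure technical spread only.

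A level is the log2 of the scanner signal minus the 75th percentile of the same array, so a level of 0 equals that percentile, and levels of different probes cannot be compared with each other. Between 57.7% and 63.1% of the spots on an array were well above background, a flag that the scanner software sets from the spot and its local background, and 0 were saturated. Markers matched the kidney label: 8 of 8 proximal tubule genes, 7 of 7 podocyte genes and 10 of 11 principal cell genes of the collecting duct were well above background on all arrays. Of 6 adipocyte genes, 1 (Fabp4) was on all arrays and the 6 summed to 102 times the 75th percentile on BDL replicate 1 against 12.4 to 29.6 on the other arrays, and urothelial genes to 76.8 against 13.9 to 23.0. Of 7 adrenal cortex genes, Cyp11a1, Cyp11b1, Cyp11b2 and Mc2r were well above background on no array. In whole tissue, fewer cells of a type and less RNA per cell cannot be told apart.

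Kidney RNA held transcripts of most of the Hox family. Of the 39 genes, 29 were well above background on all 4 arrays, 3 on some arrays and 7 on none. Over the 19655 coding genes on the array the share on all arrays was 71.2% and the share on none 20.3%. The counts of the family as a whole were near these shares. The genes on no array lay at or next to the ends of the clusters, while Hoxc8, on part of the arrays, lies inside HoxC. In groups 2 to 10, 26 of 27 genes were well above background on all arrays (96.3%), against 2 of 9 in groups 11 to 13 (22.2%). Those 2 were in group 11, where 2 of 3 genes were on all arrays, the same share as in group 8 (66.7%). The stretches 2 to 10 and 11 to 13 follow the flags themselves, so their contrast describes the pattern and is not a test. By the bins used below, 6 of 8 genes in groups 1 to 3 were on all arrays. In groups 4 to 8 it was 14 of 15, and in groups 9 to 13 it was 9 of 16.

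**Figure D1:**
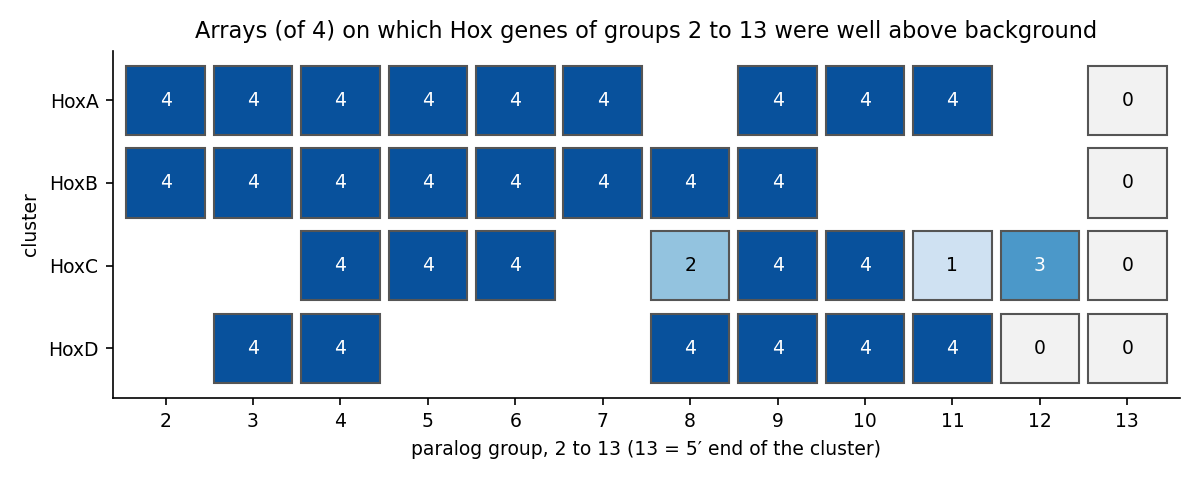
Number of arrays, of 4, on which each Hox gene of groups 2 to 13 was well above background with at least 1 probe, by cluster (rows) and paralog group (columns); an empty place has no gene. The 4s fill groups 2 to 7, 9 and 10, and all 4 genes of group 13 are at 0.

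In every cluster the gene at the 5′ end, a member of group 13, was on no array. In HoxA, 10 of 11 genes were well above background on all arrays, the last of them Hoxa11, a kidney induction gene, with Hoxa13 at 0 arrays. In HoxD, 6 of 9 genes were, up to Hoxd11, while Hoxd12 and Hoxd13, which pattern the digits, were on none. HoxB had 8 of 10, from Hoxb2 through Hoxb9, and Hoxb13, a gene of the prostate and hindgut, was on none. HoxC had 5 of 9, the lowest share of the 4 clusters (55.6%), with Hoxc8, Hoxc11 and Hoxc12 on part of the arrays and Hoxc13, a hair and nail gene, on none. Evx1 and Evx2, homeobox genes next to the 5′ ends of HoxA and HoxD, were also well above background on no array.

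Group 13, which patterns the digits and the tail end of the urogenital tract, was the only paralog group with all of its genes at 0 arrays. Hoxa13 was read by 2 probes, 1 of which had levels of -5.11 and -6.49 in sham and -7.03 and -6.71 in BDL. The lowest level of any probe well above background on those arrays was -4.74, -5.19, -4.94 and -5.33. That probe was under that limit on each array, although a weaker flag for positive signal was set for the gene on 3 of 4 arrays. At the 3′ end, Hoxb1, which specifies a hindbrain segment, and Hoxd1 were on 0 arrays. Of the genes on no array, all but Hoxa13 were read by 1 probe. For such a gene, a probe that does not work and a lack of transcript cannot be told apart.

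The partly detected genes were all in HoxC. Hoxc8, a thoracic patterning gene, had levels of -5.62 and -4.98 in sham and -4.83 and -5.11 in BDL, and passed on 1 array of each group. Hoxc11, the third paralog of group 11, had levels of -5.32 and -5.61 in sham and -4.00 and -5.93 in BDL, and passed on BDL replicate 1 only. That is the array with the high adipocyte and urothelial sums, and their part in the reading was not tested. Hoxc12 had levels of -5.23 and -4.38 in sham and -4.29 and -4.41 in BDL. It passed on both BDL arrays and on 1 sham array, so it entered the test through the BDL group alone. Neither Hoxc8 nor Hoxc11 entered the test, and no fold is given for them.

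The bases before the RefSeq start sites are shown for the most 5′ gene on all arrays in HoxA and HoxD and its next 5′ neighbour, which was on none, and for Hoxb8, which had the smallest p of the family in the comparison of the operations. Each window is the 250 bases before the start, read 5′ to 3′ on the gene's strand from RefSeq's GRCm38.p6 annotation, with CG dinucleotides, the sites of DNA methylation that make up CpG islands, in capitals. Hoxa11 lies at chr6:52245811-52246060 and Hoxa13 at chr6:52260881-52261130, both on the minus strand. Hoxd11 has 2 start sites, with windows at chr2:74679308-74679557 and chr2:74682073-74682322, Hoxd12 lies at chr2:74674763-74675012 and Hoxb8 at chr11:96281655-96281904, all on the plus strand.
Hoxa11: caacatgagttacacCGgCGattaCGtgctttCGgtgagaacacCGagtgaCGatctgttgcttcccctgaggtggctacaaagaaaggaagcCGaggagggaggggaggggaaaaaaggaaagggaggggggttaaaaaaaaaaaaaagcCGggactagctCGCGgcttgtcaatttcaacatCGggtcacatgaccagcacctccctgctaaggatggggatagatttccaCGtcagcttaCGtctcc
Hoxa13: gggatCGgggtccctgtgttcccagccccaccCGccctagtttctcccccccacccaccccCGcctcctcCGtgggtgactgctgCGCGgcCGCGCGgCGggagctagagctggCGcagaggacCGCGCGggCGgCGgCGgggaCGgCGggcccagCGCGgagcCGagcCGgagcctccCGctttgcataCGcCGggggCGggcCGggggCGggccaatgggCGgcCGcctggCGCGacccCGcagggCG
Hoxd11, first window: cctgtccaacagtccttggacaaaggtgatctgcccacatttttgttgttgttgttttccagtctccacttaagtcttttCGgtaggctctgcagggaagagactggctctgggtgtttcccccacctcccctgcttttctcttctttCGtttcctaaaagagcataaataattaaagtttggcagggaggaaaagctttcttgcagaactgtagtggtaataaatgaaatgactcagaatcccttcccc
Hoxd11, second window: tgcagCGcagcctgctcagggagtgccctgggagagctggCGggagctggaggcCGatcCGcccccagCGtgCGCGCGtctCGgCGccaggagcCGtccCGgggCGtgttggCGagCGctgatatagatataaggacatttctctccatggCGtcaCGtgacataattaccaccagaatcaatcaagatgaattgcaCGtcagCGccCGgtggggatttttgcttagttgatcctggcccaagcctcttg
Hoxd12: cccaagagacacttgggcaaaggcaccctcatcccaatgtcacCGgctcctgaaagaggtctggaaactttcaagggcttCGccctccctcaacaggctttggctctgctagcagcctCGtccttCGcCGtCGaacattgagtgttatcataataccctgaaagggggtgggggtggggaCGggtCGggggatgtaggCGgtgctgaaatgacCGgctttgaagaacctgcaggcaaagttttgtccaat
Hoxb8: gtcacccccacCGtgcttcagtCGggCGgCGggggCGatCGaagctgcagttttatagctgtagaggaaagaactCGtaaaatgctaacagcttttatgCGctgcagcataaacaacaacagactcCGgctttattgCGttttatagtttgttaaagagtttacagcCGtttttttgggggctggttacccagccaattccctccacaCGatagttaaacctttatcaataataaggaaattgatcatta

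CG content did not order these windows by detection in both clusters. Hoxa11, on 4 arrays, had 13 CG dinucleotides and a GC content of 52.0%, and Hoxa13, on none, had 35 and 80.0%. Hoxd11, on 4 arrays, had 2 and 44.8% in the first window and 20 and 60.4% in the second, and Hoxd12, on none, had 10 and 55.6%, between them. The RefSeq promoter table matched 22 of the 39 genes with 24 windows. The median was 12 CG for the 19 windows of genes on all arrays and 24 for the 5 windows of genes on none, whose range was 7 to 35, against 6 over all 32851 windows of the table. Hoxb1 had the 7, and Hoxd12 was also below the median of the genes on all arrays.

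A few short motifs were counted on both strands of the same windows. TATAAA, the core of a TATA box, was in 16.7% of the 24 windows and in 12.4% of all windows. Hoxb8 held 2 matches. AGGTCA, a hexamer bound by retinoic acid receptors and other nuclear receptors, was in 25.0% against 14.0%, and in none of the windows shown. TGATNNAT, a sequence bound by Hox proteins with their Pbx partners, was in 16.7% against 7.68%, among them Hoxb8 and the second window of Hoxd11. None of these motifs is contained in another, and a match is a description of the window only.

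BDL and sham kidneys did not differ past the threshold in any Hox gene. In the limma fit, 0 of the 30 tested Hox genes and 0% of all 24044 features had an adjusted p under 0.05, and the smallest adjusted p was 0.872 among Hox genes and 0.198 among all features. Without adjustment, 1 of 30 had a p under 0.05 (3.33%), lower in BDL, where 5.62% of all features did in either direction and 3.04% were lower. Among the 29 genes on all arrays, 17 had a higher mean in BDL (58.6%) and 12 a lower one, and over all such features 48% were higher. The median difference was 0.05 on the log2 scale against -0.01 over all features, and it was -0.14 without sham replicate 1, 0.37 without sham replicate 2 and -0.03 without BDL replicate 1.

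The Hox genes had differences of the usual size on these arrays, with a median absolute difference of 0.19 on the log2 scale against 0.20 over all features. None of the 29 exceeded 2-fold, where 3.26% of all features did, and 1 exceeded 1.5-fold (3.45% against 11.4%). The groups did not overlap for 6 genes (20.7%), which is under the 36% of all features. Of these, 4 were higher in BDL, where 16.9% of all features were, and 2 lower, where 19.1% were. The 95% interval of the difference lay within 2-fold in both directions for 16 of the 29 genes, and for the other 13 it reached past 2-fold on at least 1 side. For those 13 genes the arrays do not bound the change to under 2-fold.

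**Figure D2:**
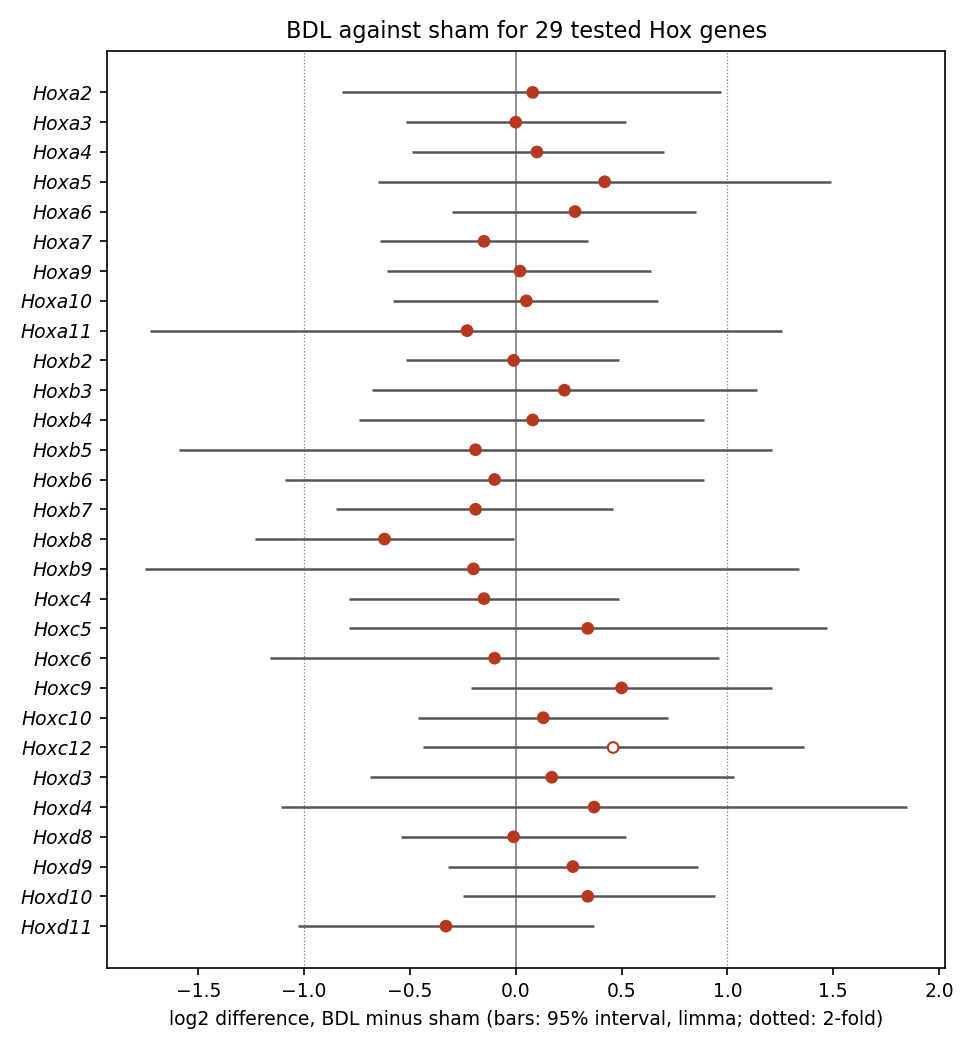
Log2 difference, BDL minus sham (x axis), of 29 tested Hox genes, with its 95% interval from the limma fit as a bar and 2-fold as dotted lines; the open circle is Hoxc12, which entered the test through the BDL arrays. Hoxb8, at -0.62, is the only gene whose interval does not reach 0. The Hoxc12 point includes a reading on sham replicate 1 under the lowest level detected on that array.

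Among the anterior groups 1 to 3, whose genes pattern the hindbrain and pharyngeal arches, 6 of 8 genes were on all arrays, 5 higher and 1 lower in BDL with a median difference of 0.12. Hoxa3, a thymus and parathyroid gene, had levels of 0.53 and 0.71 in sham and 0.67 and 0.57 in BDL, a difference of 0.00 (SE 0.20, limma adjusted p = 0.999). Its interval ran from -0.52 to 0.52. Hoxb2 was as close, with levels of 1.46 and 1.44 in sham and 1.5 and 1.38 in BDL.

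The remaining anterior genes had replicates further apart. Hoxa2, which specifies the second pharyngeal arch, had levels of -3.28 and -3.39 in sham and -3.68 and -2.84 in BDL, so the sham values lay between the BDL values. Hoxd3 had -2.04 and -1.25 in sham and -1.51 and -1.44 in BDL. Hoxb3 had -1.38 and -0.55 in sham and -0.86 and -0.60 in BDL, a difference of 0.23 (SE 0.34). Its second probe had -2.16 and -1.37 in sham and -1.83 and -2.68 in BDL, a difference of -0.49, so the probes of Hoxb3 disagreed in sign. Neither difference exceeded the gap between the replicates of a group.

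In the central groups 4 to 8, which pattern the neck and trunk, 14 of 15 genes were on all arrays, 6 higher and 8 lower, with a median difference of -0.05. Hoxb8, which is also expressed in progenitors of blood cells and microglia, had levels of -1.10 and -0.69 in sham and -1.48 and -1.55 in BDL. Both BDL arrays lay below both sham arrays. The difference was -0.62 (SE 0.23, 95% interval -1.23 to -0.01, limma unadjusted p = 0.0483 and adjusted p = 0.872), a 1.53-fold lower signal. Leaving out 1 array at a time gave -0.82 to -0.41. Because 5.62% of all features had an unadjusted p of that size, 1 in 30 is not a result about the family. Of 8 leukocyte markers well above background on all arrays, 6 were lower in BDL with a median difference of -0.30 (0.02 without sham replicate 1 and -0.69 without sham replicate 2). The summed signal of all 10 listed leukocyte genes with a probe was 68.0 and 60.1 in sham and 61.0 and 54.2 in BDL. The part of leukocytes in the Hoxb8 value was not tested.

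For Hoxa6 and Hoxa7, neighbours in HoxA that act in trunk patterning, the groups did not overlap, in opposite directions. Over all features 36% did not overlap. Hoxa6 had levels of -2.31 and -2.10 in sham and -1.79 and -2.06 in BDL, a difference of 0.28 (SE 0.22, limma adjusted p = 0.886). Hoxa7 had levels of 4.23 and 4.21 in sham and 4.09 and 4.06 in BDL, a difference of -0.15 (SE 0.19, limma adjusted p = 0.918). The Hoxa7 replicates lay within 0.03 of each other in both groups, and its fold was 1.11. Hoxb7 of the same group as Hoxa7, known from the ureteric bud, had levels of 2.69 and 3.06 in sham and 2.85 and 2.51 in BDL. Its groups overlapped, with a difference of -0.19 (SE 0.25).

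Several other central genes had sham replicates far apart. Hoxd4, a neck vertebra gene, had levels of 0.16 and 1.61 in sham and 0.92 and 1.57 in BDL, a difference of 0.37 (SE 0.56, limma adjusted p = 0.930). Hoxb5, a gene of the enteric nervous system, had -0.91 and 0.57 in sham and -0.43 and -0.29 in BDL. Both BDL arrays lay between the sham arrays for each of these genes. Hoxb6 had 1.82 and 2.77 in sham and 2.33 and 2.05 in BDL, and Hoxc6 had 1.23 and 2.27 in sham and 1.53 and 1.77 in BDL, again with BDL inside the sham range. Hoxa5, a lung and thoracic gene, had -1.95 and -0.95 in sham and -1.25 and -0.81 in BDL, a difference of 0.42 (SE 0.41). Hoxd8, by contrast, was even on all arrays, at 2.43 and 2.55 in sham and 2.57 and 2.37 in BDL.

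Group 4 and Hoxc5 complete the central set. Hoxa4 had levels of -2.38 and -2.14 in sham and -2.30 and -2.01 in BDL, and Hoxb4, a gene of blood stem cells, had 1.67 and 2.39 in sham and 2.02 and 2.19 in BDL. Hoxc4 had -0.82 and -0.38 in sham and -0.84 and -0.66 in BDL. Hoxc5 had -4.15 and -3.00 in sham and -3.31 and -3.17 in BDL, a difference of 0.34 (SE 0.43). The groups overlapped for all of these genes.

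In the posterior groups 9 to 13, which pattern the lumbosacral and tail regions, the limbs and the urogenital tract, 9 of 16 genes were on all arrays, 6 higher and 3 lower, with a median difference of 0.05. Hoxc9, a thoracic gene also expressed in white fat, had levels of 0.85 and 0.99 in sham and 1.70 and 1.14 in BDL, a difference of 0.50 (SE 0.27, limma adjusted p = 0.872). Hoxd10 had -0.88 and -0.73 in sham and -0.28 and -0.64 in BDL, a difference of 0.34 (SE 0.23, limma adjusted p = 0.875). Hoxd9 had 0.51 and 0.73 in sham and 1.04 and 0.75 in BDL, a difference of 0.27 (SE 0.22, limma adjusted p = 0.888). These 3 of 9 genes (33.3%) were the only posterior genes whose groups did not overlap, near the 36% of all features. All were higher in BDL, where 16.9% of all features were higher without overlap.

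Each of the 4 Hox genes that lay higher in BDL without overlap had its highest level on BDL replicate 1. Without that array the difference was 0.22 for Hoxc9, 0.17 for Hoxd10, 0.12 for Hoxd9 and 0.14 for Hoxa6, so each shrank by over 1.5 times. That each shrank and kept its sign follows from the choice of these genes. Groups that do not overlap keep their order without any 1 array, and the array left out was the highest. BDL replicate 1 was the highest array for 9 of the 29 genes (31.0%), and for 25.5% of all features. Among them was Hoxc10, with -0.70 and -0.71 in sham and -0.38 and -0.75 in BDL. It is also the array with the adipocyte and urothelial sums given above, and its smooth muscle sum was 37.9 against 26.4 and 36.8 in sham and 29.0 on the other BDL array. The part of those cells in the Hox values was not tested.

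The group 11 genes, which induce the metanephric kidney, were not separated by the operation. Hoxa11 had levels of -2.95 and -1.54 in sham and -2.86 and -2.10 in BDL, a difference of -0.23 (SE 0.56, limma adjusted p = 0.954) with an interval from -1.73 to 1.26. The sham replicates of Hoxa11 were 2.66-fold apart. Hoxd11 had -4.08 and -3.59 in sham and -4.31 and -4.02 in BDL, a difference of -0.33 (SE 0.26, limma adjusted p = 0.888). Among the rest, Hoxa9, a blood progenitor gene, had 0.10 and -0.33 in sham and -0.04 and -0.14 in BDL. Hoxb9 had -1.43 and 0.24 in sham and -0.85 and -0.75 in BDL, and its sham replicates were 3.18-fold apart. Hoxa10, a gene of uterine development, had 1.03 and 0.82 in sham and 1.17 and 0.78 in BDL. Hoxc12 entered the test through the BDL arrays, and on sham replicate 1 its level of -5.23 lay under the lowest level detected there (-4.74). Its difference of 0.46 (SE 0.34) was 0.03 without sham replicate 1 and 0.04 with a different background correction (normexp). No p or fold is given for Hoxc12.

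By cluster, HoxA had 8 genes higher and 2 lower with a median of 0.06, HoxB 2 higher and 6 lower with -0.15, HoxC 3 higher and 2 lower with 0.13 and HoxD 4 higher and 2 lower with 0.22. The difference between clusters was not tested. In 6 pairs of Hox genes, covering 10 genes, the spans of the RefSeq gene models overlap. The pairs were Hoxa3 with each of Hoxa4, Hoxa5 and Hoxa6, then Hoxb3 with Hoxb4, Hoxd3 with Hoxd4, and Hoxd10 with Hoxd11. Signal may therefore not always belong to 1 gene of a pair. The spans run from start to end of a gene, and whether any probe reads both genes of a pair was not checked.

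For most Hox genes the replicates of a group lay further apart than the groups. A gap between replicates exceeded the group difference in 26 of the 29 genes (89.7%), against 77.7% of all features. Sham replicate 1 was the lowest array in 18 of 29 (62.1%), against 26.9% of all features, and sham replicate 2 lay above it in 23 (79.3%), against 43.1%. Sham replicates were more than 2-fold apart in 6 genes (20.7%, background 8.58%), and BDL replicates in 0 (background 4.64%). The 6 were Hoxa11, Hoxb5, Hoxb9, Hoxc5, Hoxc6 and Hoxd4, each higher on sham replicate 2.

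**Figure D3:**
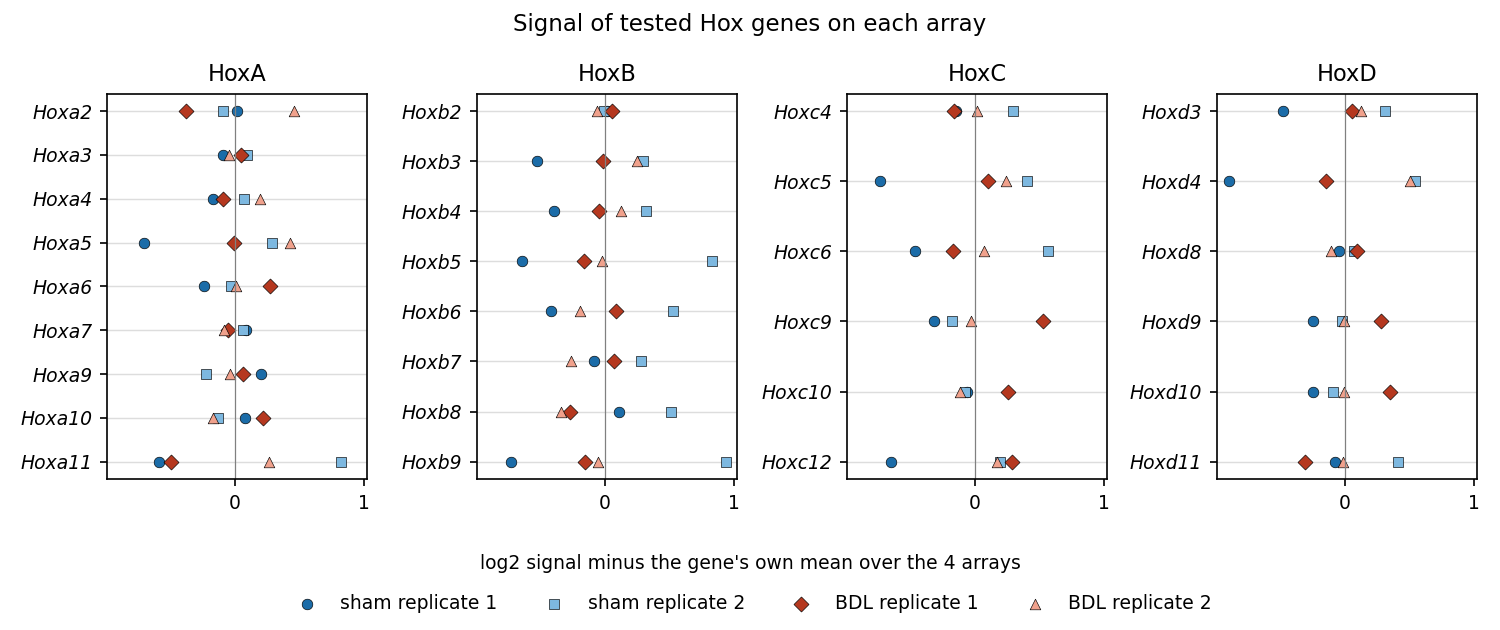
Log2 signal of 29 tested Hox genes on each array minus the gene's own mean over the 4 arrays (x axis), with 1 row per gene and 1 panel per cluster; each point is 1 array. Sham replicate 1 (dark circles) is on the left and sham replicate 2 (light squares) on the right in most rows of HoxB, with the BDL arrays between them; for Hoxc12, sham replicate 1 was not well above background.

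Markers of several kidney cell types also set the sham arrays apart, some in the order of the Hox genes and some in the opposite order. The median deviation from a gene's own mean, over the 29 genes, was -0.24 on sham replicate 1 and 0.28 on sham replicate 2, against 0.05 and -0.02 on the BDL arrays. HoxB was furthest apart, at -0.41 and 0.42 on the sham arrays. Principal cell markers of the collecting duct (10 genes) had -0.37 and 0.29 on the sham arrays, with 8 of 10 higher on sham replicate 2. The summed signal of all 11 listed principal cell genes was 59.5 and 118 in sham and 109 and 81.3 in BDL, in multiples of the 75th percentile. Endothelial markers (7 genes) had -0.34 and 0.16, with sums of 27.6 and 35.5 in sham and 32.5 and 31.9 in BDL. Proximal tubule markers (8 genes) ran the other way, at 0.11 and -0.12, with sums of 2150 and 1850 in sham and 1940 and 1800 in BDL, and all 22550 features lay at 0.03 and -0.02. Stromal fibroblast markers (10 genes) had -0.29 and 0.13 on the sham arrays and smooth muscle markers (6 genes) -0.56 and 0.29. Leukocyte markers (8 genes) had 0.55 and -0.11, with 0 of 8 higher on sham replicate 2. Between the operations 0 marker genes passed the threshold. The median differences of these lists changed sign with 1 array left out. Leaving out sham replicate 1 or sham replicate 2 gave -0.26 or 0.47 for principal cell (0.03 with all arrays), -0.10 or 0.46 for endothelial (0.18) and 0.06 or -0.16 for proximal tubule genes (-0.08). The same gave -0.08 or 0.29 for stromal fibroblast (0.11), -0.16 or 0.67 for smooth muscle (0.24) and -0.04 or 0.08 for adrenal cortex genes (0.02). Urothelial genes (0.40) went to -2.51 without BDL replicate 1 and to 3.30 without BDL replicate 2. The part of cell makeup in the Hox spread was not tested.

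**Figure D4:**
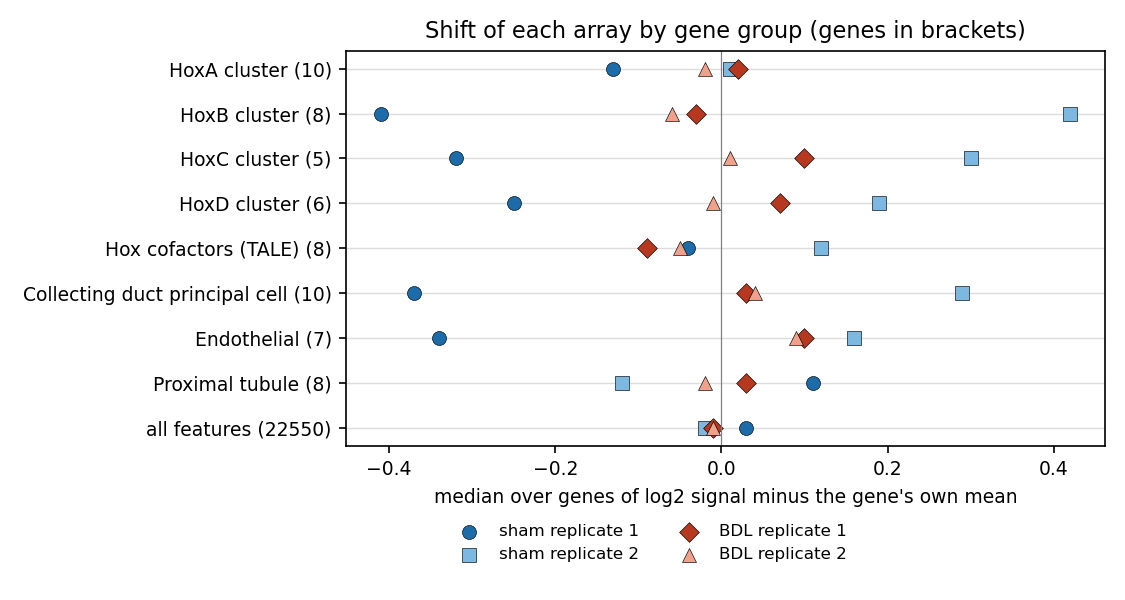
Median over the genes of each group of the log2 signal minus the gene's own mean (x axis), per array; brackets give the number of genes well above background on all arrays. In HoxB, HoxC, HoxD, principal cell and endothelial genes, sham replicate 1 is the lowest array and sham replicate 2 the highest, while all features lie within 0.03 of 0.

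Hox proteins bind DNA with partner proteins of the TALE class, the Pbx, Meis and Pknox (Prep) families. Of 9 such genes, 8 were on all arrays, 2 higher and 6 lower in BDL with a median difference of -0.18 (-0.33 without sham replicate 1 and -0.05 without sham replicate 2), and 0 passed the threshold. Pknox1 had levels of 1.14 and 0.67 in sham and 0.26 and 0.56 in BDL, a difference of -0.49 (SE 0.26, limma adjusted p = 0.872). Pbx3 had 0.56 and 0.72 in sham and 0.16 and 0.47 in BDL, a difference of -0.32 (SE 0.22). The groups did not overlap for either gene. Over the list they did not overlap for 3 of 8 genes (37.5% against 36% of all features), 2 lower and 1 higher in BDL. Pknox2 had a difference of -0.34 (SE 0.37) with overlapping groups. Meis1 had a difference of 0.00 and its sham replicates were 0.87 apart, with sham replicate 1 the lower.

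Hox clusters are held silent by Polycomb complexes and kept active by Trithorax complexes. Of 16 Polycomb genes on all arrays, 10 were higher and 6 lower with a median difference of 0.02 (-0.09 without sham replicate 2 and -0.01 without BDL replicate 1). Ring1, a ubiquitin ligase subunit, had a difference of -0.36 (SE 0.20) and Ezh2, the methyltransferase for histone H3 lysine 27, one of 0.25 (SE 0.21), both with an adjusted p of at least 0.872 in the limma fit. Pcgf2, a subunit of the complex with Ring1, had -0.27 (SE 0.29). Of 10 Trithorax genes on all arrays, 8 were higher and 2 lower with a median of 0.15 (-0.03 without sham replicate 1), among them Kdm6a, which removes the Polycomb mark, at 0.32 (SE 0.21), and the methyltransferase core subunits Wdr5 at 0.30 (SE 0.29) and Ash2l at 0.20 (SE 0.22). Cdx1, Cdx2 and Cdx4, homeobox activators of posterior Hox genes in the embryo, were well above background on no array. None of these genes passed the threshold.

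Retinoic acid induces 3′ Hox genes in the embryo, and its list held the largest difference among the lists of Hox regulators, partners and neighbours. Of 13 on all arrays, 8 were higher and 5 lower with a median difference of 0.25 (0.06 without sham replicate 2), and 5 exceeded 1.5-fold (38.5% against 11.4% of all features). Cyp26b1, which degrades retinoic acid, had levels of -2.28 and -2.07 in sham and 0.11 and 0.47 in BDL. Its difference of 2.47 (SE 0.23) did not pass the threshold (limma adjusted p = 0.254). Rara, a retinoic acid receptor, had 3.40 and 3.70 in sham and 4.13 and 4.07 in BDL, a difference of 0.55 (SE 0.21). Aldh1a2, which makes retinoic acid, had -1.14 and -1.65 in sham and -0.75 and -0.83 in BDL, a difference of 0.61 (SE 0.25). These 3 genes were named for having the smallest p of the list, and over the list the groups did not overlap for 4 of 13 genes (30.8% against 36% of all features).

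The kidney genes that act with Hox genes in development were in part detected. Of 27, 21 were on all arrays, 7 higher and 14 lower with a median difference of -0.08 (0.11 without sham replicate 2, 0.06 without BDL replicate 1 and -0.30 without BDL replicate 2). Six2 and Gdnf, the targets of group 11 in the embryo, and Ret, the receptor for Gdnf, were well above background on no array. Eya1 had levels of 5.68 and 5.01 in sham and 4.92 and 5.41 in BDL, a difference of -0.18 (SE 0.33). Wt1, a podocyte and nephron progenitor factor, had 0.56 and 0.36 in sham and 1.48 and 1.37 in BDL, a difference of 0.97 (SE 0.20, limma adjusted p = 0.720). Podocyte markers were higher in BDL in 7 of 7 genes with a median of 0.58, their summed signal was 31.6 and 25.3 in sham and 54.7 and 43.1 in BDL, and their part in the Wt1 value was not tested. Foxd1, a factor of the kidney stroma that is also expressed in podocytes, had levels of -4.07 and -3.98 in sham and -3.26 and -3.15 in BDL. Its difference was 0.82 (SE 0.19, limma adjusted p = 0.760). Wt1 and Foxd1 were named for a small p in the list. Over the list the groups did not overlap for 6 of 21 genes (28.6% against 36% of all features), 3 higher and 3 lower in BDL.

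Genes next to the clusters were compared to see whether they moved with them. Of 10 on all arrays, 3 were higher and 7 lower with a median difference of -0.17, and 6 did not overlap between the groups (60.0% against 36% of all features), 5 of them lower in BDL, where 19.1% of all features were. The median was -0.11 without BDL replicate 1. Skap1, an adaptor protein of T cells beside HoxB, had levels of -1.44 and -0.76 in sham and -1.90 and -1.99 in BDL, a difference of -0.85 (SE 0.29, limma adjusted p = 0.872). Ttll6, on the other side of HoxB, had -2.55 and -2.08 in sham and -2.76 and -2.97 in BDL, a difference of -0.54 (SE 0.25). Both had the order of the arrays seen for Hoxb8, with sham replicate 2 highest and both BDL arrays lowest. Skap1 and Ttll6 were named for a small p in their list, and Hoxb8 had the smallest p of the Hox genes. That both BDL arrays were lowest for these genes follows largely from that choice, and whether they move together was not tested. Lnpk, beside HoxD, had levels of -3.51 and -4.15 in sham and -5.47 and -4.45 in BDL. It entered the test through the sham arrays alone, and on BDL replicate 1 it lay under the lowest level detected there (-4.94), so no fold is given. Of 18 listed noncoding RNAs of the clusters, 2 matched a probe: Hoxd3os1 had a difference of 0.17 and Hoxa11os one of -0.10, with overlapping groups.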

How the data were processed

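Each array held 1 kidney RNA carrying the dye Cy3, per the labels' protocols. The submitters' processing notes name Agilent Feature Extraction 11.0.1.1. Its deposited processed signal is a linear intensity with the background subtracted and, per the file headers, without scaling to the other arrays, and the flags are the software's. All 4 arrays share 1 slide and 1 scan time. The authors' deposited value table is the same intensity divided by 1 constant per array. What set that constant is unknown.

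Levels are log2 signal minus the array's 75th percentile (712 and 849 for sham, 741 and 945 for BDL). Outlier-flagged spots were left out. Accessions were matched without versions to RefSeq (GRCm38.p6), which named 27223 of 55668 probes. Its start-site windows were used for sequence, while the array grid lists mm9. Probes flagged well above background on both sham or both BDL arrays were kept (32283 probes), and the brightest retained probe stood for a gene (24044 features). The comparison used lmFit and eBayes of limma 3.58.1 (R 4.3.3), two-sided, and p-values were adjusted over every feature by Benjamini-Hochberg and read at 0.05. The fit was tested on simulated data. Counts over lists use features well above background on all 4 arrays (22550). An exact permutation test of 2 against 2 cannot go below p = 0.333 and was not used. The number of arrays limits the precision.

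The members and the 17 other lists were chosen with earlier results of these data known. All 39 Hox genes were to be named, and of each other list up to 3 genes with the smallest p, plus defining markers well above background in neither group. The values of 1 Hox gene, which is counted among the 39, and of some other genes that the rule takes are not reported here, and Eya1 and Meis1 fall outside it and were chosen after their values were seen. Alternatives covered background correction, scaling, the value table, filters, probes, array weights, a replicate block and leaving out each array.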

Additional observations from a re-analysis of the deposited data

How the results depend on the processing

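The count of 0 features past the limma threshold stood under every alternative run, with 845 to 2793 features at an unadjusted p under 0.05 (1352 in the reported fit), and the same held for the Hox genes, whose adjusted p ranged from 0.384 to 1.0. The Hox median difference was 0.05 to 0.08 under the alternatives that keep all arrays and -0.14 to 0.37 when 1 array was left out, the latter without sham replicate 2. The count of genes well above background on all arrays, 29 as reported, was 28 when every probe of a gene had to pass and 32 with the weaker flag or with at least 1 array. With the replicate block, the median was 0.05 and 0 features passed. Deviations of arrays with the same replicate number correlated at 0.06 over 24044 features, so the pairing rests on the number alone. Array weights are equal within a group of 2 arrays by construction, as both lie equally far from their mean, so they could not rank the replicates.

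The sign held in 9 of 30 genes under the alternatives run (Hoxa6, Hoxa7, Hoxb7, Hoxb8, Hoxc9, Hoxc12, Hoxd9, Hoxd10 and Hoxd11). For Hoxa6, Hoxa7, Hoxb8, Hoxc9, Hoxd9 and Hoxd10 the groups did not overlap, so leaving out 1 array could not change the sign. Without sham replicate 2, Hoxb7 was -0.01 and Hoxd11 -0.08. Hoxc12 was 0.03 without sham replicate 1 and 0.04 with normexp. For Hoxc12 there were 12 alternatives in place of 13, because the filter on all 4 arrays removed it, and it had entered through the BDL arrays, where it was higher. In 18 genes it changed only when 1 array was left out. Hoxa3, reported at 0.00, was -0.01 with quantile normalization. Hoxb2, at -0.01, was 0.06 with normexp and 0.01 with the percentile over detected probes, and Hoxd8, at -0.01, was 0.01 with the latter. The causes were not tested. With 1 array left out, when the lone array is assumed to vary like the other group, the differences ran from -0.35 to 0.50 (Hoxa2), -0.09 to 0.09 (Hoxa3), -0.04 to 0.25 (Hoxa4), -0.08 to 0.92 (Hoxa5), -0.20 to 0.23 (Hoxa9), -0.15 to 0.24 (Hoxa10), -0.94 to 0.47 (Hoxa11), -0.07 to 0.05 (Hoxb2), -0.18 to 0.65 (Hoxb3), -0.28 to 0.44 (Hoxb4), -0.93 to 0.55 (Hoxb5), -0.57 to 0.37 (Hoxb6), -1.04 to 0.63 (Hoxb9), -0.37 to 0.07 (Hoxc4), -0.24 to 0.91 (Hoxc5), -0.62 to 0.42 (Hoxc6), -0.05 to 0.32 (Hoxc10), -0.23 to 0.57 (Hoxd3), -0.36 to 1.09 (Hoxd4) and -0.11 to 0.09 (Hoxd8). With 2 arrays a group, the change was bounded to under 2-fold for 16 of 29 genes.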
